A study of Mus musculus with 12 samples.

Results

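The transcriptome of wildtype fully grown mouse oocytes was described from the 4 libraries labelled WT1 to WT4, out of 12 libraries in the series. Members were chosen by these labels, under a rule set with earlier results of these data known. All 12 libraries came from C57BL/6 mice of 3 weeks primed with 5 IU of PMSG, a gonadotropin given to make follicles grow, and oocytes at the germinal vesicle stage were taken 46 h later, 80 per library. The other libraries carry mutations of Marf1, a gene that oocytes need to resume meiosis: 4 are from a gene trap line (GTMut) and 4 from the D272 mutant line (D272Mut). They are used here only to show where WT oocytes stand apart. No label says whether libraries came from separate mice. The p-values below therefore judge differences only against the spread between these libraries, which may be technical. The labels disagree on 2 points: the treatment text speaks of lysed ovaries while the design text speaks of collected oocytes, and amplification by Smart-seq2 is named beside a kit that fragments RNA and primes at random.

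A fully grown oocyte is a large arrested cell that has stored messenger RNA during its growth and transcribes little by the end of it. The stored transcripts must last through meiosis and fertilisation until the embryonic genome is activated, so the oocyte combines high levels of a few germ cell products with proteins that hold its messages silent. It surrounds itself with a coat of zona pellucida proteins and signals to the follicle cells around it through secreted growth factors and gap junctions.

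Of 24254 genes with values, 1285 short RNA genes (symbols starting Mir, Snor, Rnu or Scarna) were left out, and 22969 were ranked. Levels are given in FPKM, a fragment count divided by transcript length and by library size, so they can be compared between genes. Between 10694 and 10757 genes reached 1 FPKM in a WT library (10732 ± 29.9, SD, n = 4), and 10092 did so in each of the 4. A further 5572 (24.3% of ranked genes) were listed at 0 in all 4 libraries. Absolute depth is unknown because the values hold no totals. Relative depth, read from the worth of 1 fragment in low genes, was 0.613 in WT1, 0.704 in WT2, 0.944 in WT3 and 0.713 in WT4 of the deepest of the 12 libraries, a range of 1.54-fold. Log levels of the 6 pairs of WT libraries correlated across genes at 0.9945 to 0.9955.

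The WT transcriptome was steeply graded. The most abundant gene alone held 2.61% ± 0.058 (SD, n = 4) of the summed FPKM of a library, the 10 most abundant held 9.87% ± 0.083, the 100 most abundant 28.4% ± 0.24 and the 1000 most abundant 62.6% ± 0.17. The 501 most abundant genes held 50% of the sum. In level classes, 41 genes had a WT mean of at least 1000 FPKM, 772 lay between 100 and 1000, 4835 between 10 and 100, 5091 between 1 and 10, and 6658 above 0 but under 1. Of the 100 most abundant genes by mean, 92 were in the top 100 of every WT library.

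**Figure D1:**
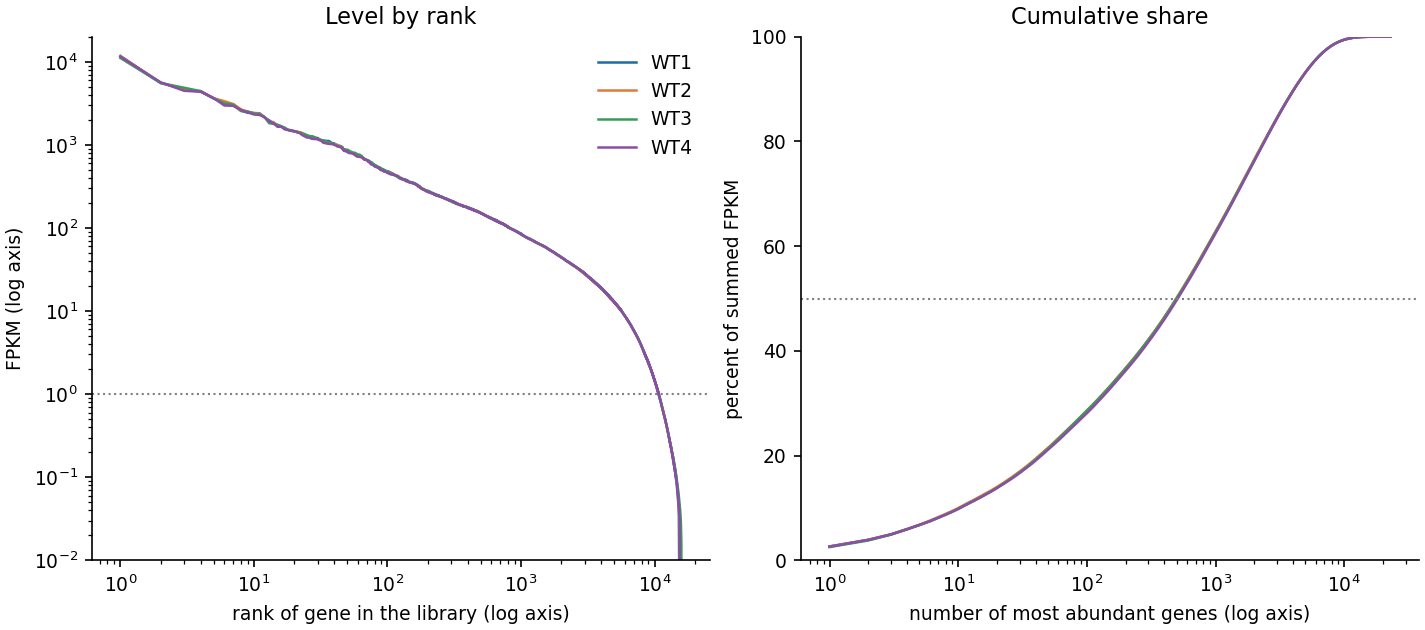
Level against rank in each WT library (left, both axes log, dotted line at 1 FPKM) and cumulative percent of summed FPKM against the number of most abundant genes (right, dotted line at 50%). The 4 lines lie on each other, and the 100 most abundant genes reach 28.1% to 28.6%.

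The most abundant transcript among the ranked genes was Zbed3. It encodes a zinc finger protein of the subcortical maternal complex, a protein assembly beneath the oocyte membrane. Zbed3 stood at 11742, 11617, 11113 and 11511 FPKM in WT1 to WT4. The gene ranked next, Gdf9, lay between 5555 and 5659, so Zbed3 was far above every other ranked gene in each library. Zbed3 lies on chr13:95323605-95337842 (GRCm38.p6, the RefSeq release of mm10). The 250 bases before its start are printed because it is the most abundant of the ranked genes. Capitals mark TATAA 40 to 20 bases before the start and E-box hexamers. The E-boxes searched were CAGGTG on either strand, read as CACCTG on the other, and the palindrome CACGTG. E-boxes are the motif class bound by basic helix-loop-helix proteins, a class that includes the oocyte factor FIGLA. All sequences shown are from RefSeq, end at the base before the start, and are given 5′ to 3′ on the gene's strand.
Zbed3: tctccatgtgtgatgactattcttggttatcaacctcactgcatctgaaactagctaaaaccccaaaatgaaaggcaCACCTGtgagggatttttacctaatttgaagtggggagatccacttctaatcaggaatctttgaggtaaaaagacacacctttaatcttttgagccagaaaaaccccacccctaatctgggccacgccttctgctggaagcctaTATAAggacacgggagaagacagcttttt
In this stretch (chr13:95323355-95323604, plus strand) TATAA begins 29 bases before the start and CACCTG begins 173 bases before it.

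Gdf9, the growth differentiation factor that oocytes secrete to their follicle cells, was the next gene, at 5555, 5596, 5558 and 5659 FPKM. Its spread of 48.6 (SD) on a mean of 5592 was under 1% of the level. Gm15698, a gene model with no role assigned here, followed at 4666 ± 166. Ubb, a polyubiquitin gene, stood at 4393 ± 38.4, and Gm1821, which the table places at the same locus as Ubb, at 3039.7 ± 66.5, so fragments could have been divided between those 2. Bcl2l10, a Bcl2 family member of germ cells, reached 3631 ± 22.3, and Spin1, a reader of histone marks, 3167 ± 154.

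The rest of the 30 most abundant genes fell into a few kinds. Chromatin proteins were Zfp57 (2379 ± 53.9), which protects imprinted methylation, and H1foo (2154 ± 11.5), the linker histone of oocytes. Bmp15, the X-linked partner of Gdf9, stood at 2403, 2382, 2393 and 2290.3 FPKM. Zar1, an RNA-binding protein that oocytes use to hold messages, stood at 1821, 1893, 1821 and 1822. The homeobox genes Obox2 and Obox1 reached 1503 ± 63 and 1324 ± 91.5, and Nlrp14, of the NLR family, 1553 ± 42.2. Proteins of ubiquitin handling were Rfpl4 (1698 ± 43.5), the deubiquitinase gene Uchl1 (1447 ± 54.1) and Skp1a (1259 ± 58), the adaptor of SCF ubiquitin ligases. The list also held Khdc1b with a KH domain (1464 ± 55.3), the Akt coactivator Tcl1 (1254 ± 23.6), Fam46c, a poly(A) polymerase of the noncanonical type (1276 ± 41.8), and Oas1e, an oligoadenylate synthetase family member (1165 ± 17.2).

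Several of the 30 are textbook genes of other tissues. Bpgm encodes the mutase that makes bisphosphoglycerate in red blood cells, and it stood at 1675, 1701, 1662 and 1651 FPKM. The alpha and beta globin genes and Alas2, picked after their values were seen as markers of red cells, had WT means between 0.0226 and 0.88 FPKM. Ccno, a cyclin-like gene known from multiciliated cells, stood at 1416, 1425, 1405 and 1431, and Slc45a3, a sugar transporter gene known from prostate, at 1466, 1464, 1443 and 1509. The spread of these 3 between libraries was small beside their level. AU022751 (2610.1 ± 54.9), E330021D16Rik (2474 ± 48.3) and D6Ertd527e (1889 ± 73.7), whose symbols name no function, also stood in the top 13.

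**Figure D2:**
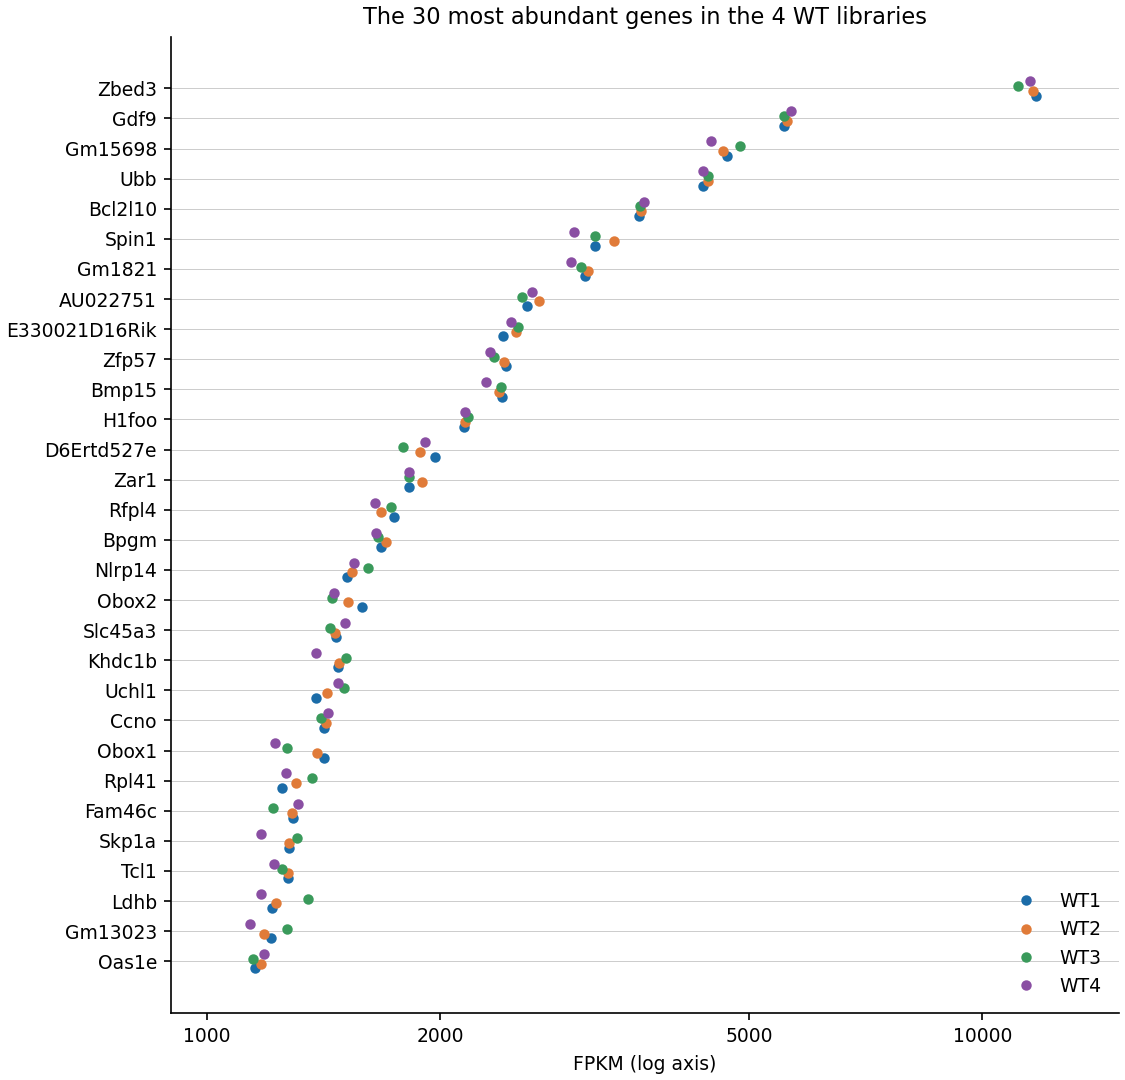
FPKM (log axis) of the 30 most abundant genes, with 1 point per WT library. Zbed3 at 11113 to 11742 stands apart to the right, and the points of a gene lie close together.

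Secreted and surface products were high. All 7 measured zona and oocyte-secreted genes exceeded 100 FPKM in mean, with a list median of 230.2 ± 5.2 (SD of the library medians, n = 4), against 0.659 ± 0.0072 over all ranked genes, of which 3.54% reach 100. The zona pellucida coat genes were unequal: Zp3 stood at 752, 766, 803 and 796 FPKM, Zp1 at 219.6, 212, 213 and 225, and Zp2 at 146, 148, 161 and 148. The 3 ranges do not overlap. Astl, the protease that cleaves the coat after fertilisation, was at 262 ± 7.2. Oosp1, Oosp2 and Oosp3, a family of oocyte-secreted proteins, were at 589 ± 25.6, 224 ± 17.4 and 168 ± 10.8.

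Signals to the follicle had a list median of 594 ± 13.2 FPKM over 6 genes. Beside Gdf9 and Bmp15, Gja4 (connexin 37, the junction protein of the oocyte) was at 1001, 1019, 995 and 1039. Bmp6 stood at 175 ± 7.3, the receptor gene Kit at 99.9 ± 3.8 and Fgf8 at 61.9 ± 6.3. Kitl, the ligand of Kit made by granulosa cells, was at 2.85, 2.94, 2.78 and 1.95 FPKM, well under its receptor in every library.

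Oocyte transcription factors ranged more widely in level than the secreted, maternal complex, Nlrp and oogenesin lists. Of 15 genes, 3 exceeded 1000 FPKM (Obox2, Obox1 and Obox5 at 1038 ± 14.8), 12 reached 1, and 3 lay under 1. Foxo3, which holds follicles dormant, stood at 194, 201, 177 and 210.2. Sohlh1, which acts early in follicle formation, was at 0, 0.149, 0.111 and 0.148. The median of the list was 32.9 ± 1.7.

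Maternal effect genes, whose products the embryo needs from the egg, were mostly high but differed widely in level. The 8 genes of the subcortical maternal complex had a median of 599 ± 13.9 FPKM and together held 3.47% ± 0.045 of summed FPKM. Below Zbed3 came Ooep (844 ± 37.7), Padi6 (664 ± 19.8), Khdc3 (644 ± 24.6), Nlrp4f (557 ± 13.9), Tle6 (519.8 ± 14.1), Nlrp5 (449 ± 7.7) and Nlrp2 (119 ± 4.1). Members of this protein assembly thus spanned the range from 11496 to 119 in mean transcript level. The other 9 oocyte Nlrp genes had a median of 234 ± 8.2, from Nlrp14 at the top to Nlrp4c at 7.94, 9.12, 9.31 and 9.37.

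The oogenesins and other oocyte families were the broadest high group. All 21 genes measured exceeded 10 FPKM and 19 exceeded 100, with a median of 388 ± 15.4 and a share of 3.91% ± 0.074 of summed FPKM. Besides Bcl2l10, Spin1, H1foo and Rfpl4 they include the Oog genes, with Oog3 at 1057, 998, 1052 and 958, and the Fbxw family of F-box proteins, whose lowest member was Fbxw13 at 48.6 ± 3.4. These families hold close paralogs, and fragments may be divided among copies, so a level within a family is less certain than the family's.

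**Figure D3:**
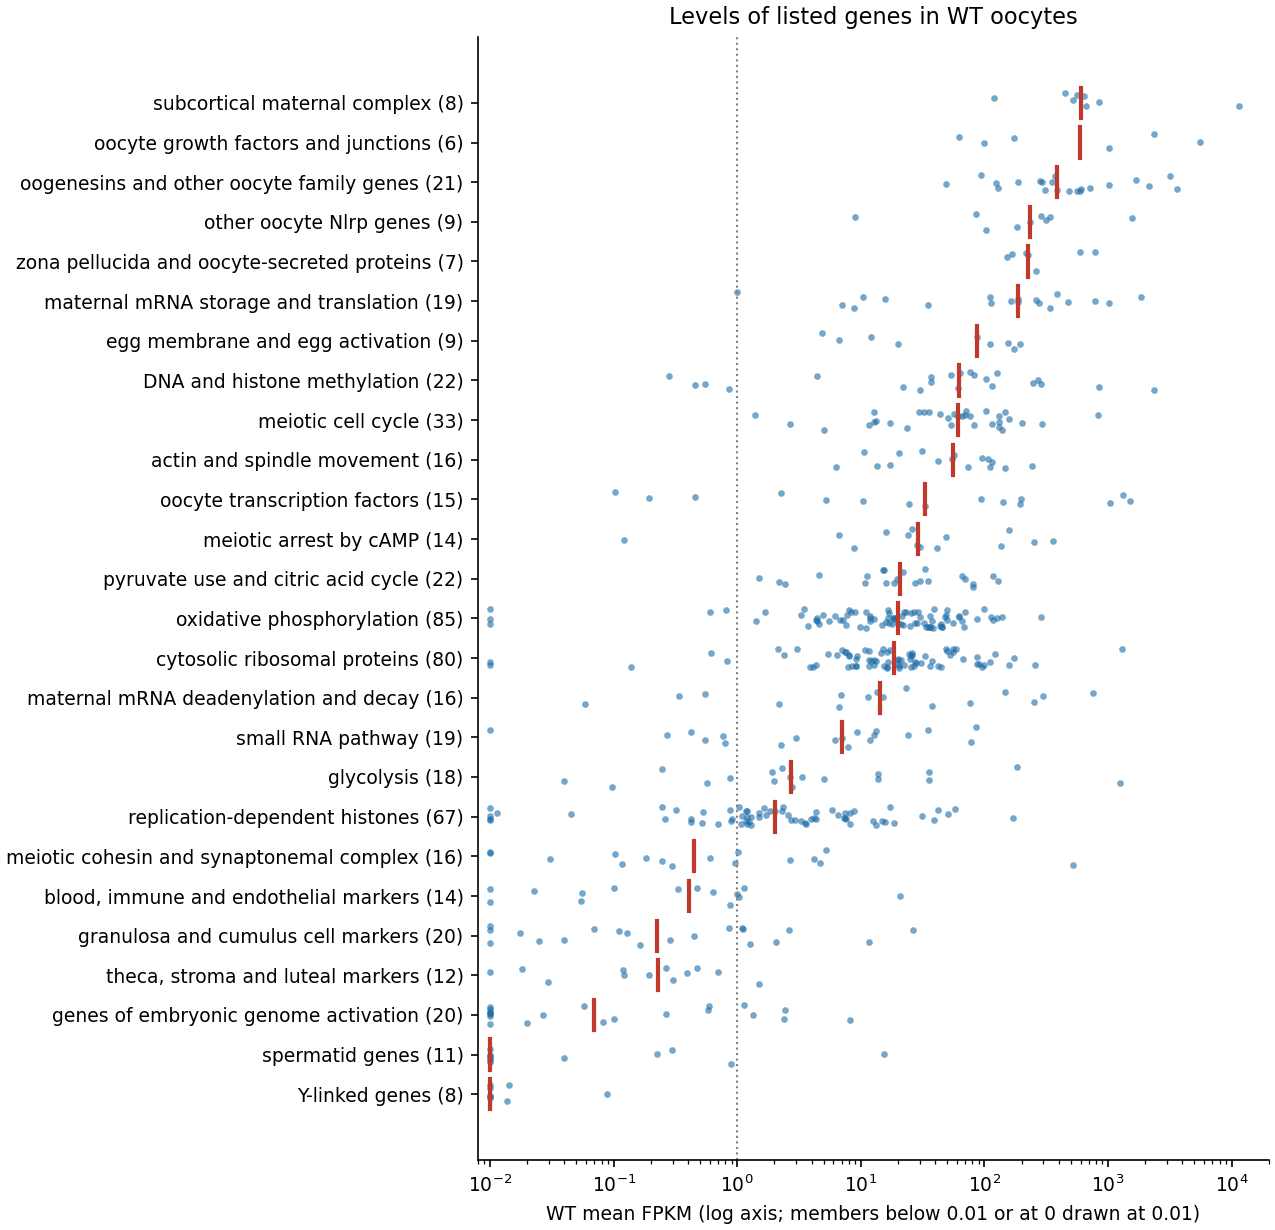
WT mean FPKM (log axis) of every measured member of 26 gene lists, sorted by median, with the red bar at the median of the members and the number measured in brackets. All members of the subcortical maternal complex lie at 119 or above, and markers of other cells lie mostly under the dotted line at 1 FPKM.

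Genes of DNA and histone methylation ranged from 0.278 to 2379 FPKM around a median of 62.2 ± 2. Zfp57 was followed by Dppa3, which protects the maternal genome from demethylation, at 833, 809.6, 873 and 838, by the nucleoplasmin gene Npm2 at 285 ± 8.9 and by the maintenance methyltransferase gene Dnmt1 at 273 ± 7.2. Tet2, a demethylating oxidase gene, was the lowest at 0.278 ± 0.028.

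The arrest at the germinal vesicle stage is kept by cyclic AMP, which a constitutive receptor and its G protein keep high inside the oocyte. Gpr3, that receptor, stood at 159, 151, 159 and 158 FPKM, and Gnas, which encodes the G protein, at 147, 143, 129.6 and 130.4. Rgs2, a regulator of G protein signalling, was higher at 356 ± 13.4, and the kinase anchor gene Akap1 was at 252 ± 6.3. Adcy3, an adenylyl cyclase gene, was at 0.122 ± 0.1, the lowest of 14 genes listed. Marf1 itself was at 26.2, 25.5, 26.4 and 25, rank 3191. Against these WT values the mutants had 1.43 ± 0.13 (GTMut) and 53.1 ± 1 (D272Mut), which checks the labels of the gene trap, and the D272 change itself cannot be read from a level.

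Transcripts of genes that act in the coming divisions were present. All 33 meiotic cell cycle genes measured reached 1 FPKM, against 46.8% of all ranked genes. The level of 10 FPKM was reached by 30 of them, against 5648 of all 22969 ranked genes, and their median was 60.8 ± 2.1. Mos, the kinase that starts the MAP kinase pathway of egg arrest, stood at 832, 830.4, 821 and 851. Ccnb1 (cyclin B1) was at 291 ± 8.3, the checkpoint kinase gene Bub1b at 200.2 ± 3.7 and Wee2, the oocyte kinase that inhibits CDK1, at 158 ± 2.3. Ppp2cb, a phosphatase 2A subunit gene, was lowest at 1.39 ± 0.33 and overlaps Ubxn8. The 16 actin and spindle movement genes had a median of 55.4 ± 2.2, from Tacc3 at 243 ± 7.3, Cdc42 at 147 ± 7, Rac1 at 115 ± 4.2 and Rab11a at 111 ± 3.3 down to Spire2 at 6.31 ± 0.93.

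Genes of meiotic cohesin and chromosome pairing had a median close to that of all genes, with Syce2 far above it. Of 16 cohesin and synaptonemal genes, 10 had a mean under 1 FPKM, as did 53.2% of all ranked genes, and the list median was 0.464 ± 0.084 against 0.659 over all. Rec8 and Spo11 were listed at 0 in all 4 libraries. Sycp3, a lateral element protein, was at 5.26 ± 1.4, Sycp2 at 4.7 ± 0.6 and the recombination gene Msh4 at 4.22 ± 0.25. Syce2, a central element protein of the same structure, was at 505, 525, 523 and 533 FPKM, rank 86 of all genes. The next member, Sycp3, did not exceed 6.68 in any library. The locus of Syce2 overlaps that of Gcdh in the table, and no source used here says whether reads were assigned by strand.

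Genes that store and translate maternal messages had a median of 183 ± 0.98 FPKM over 19 genes. After Zar1 came Eif4e1b, the cap-binding protein of oocytes, at 1039, 1023, 1002 and 1005, then Lsm14b at 791 ± 10.6 and Cpeb1, which binds the cytoplasmic polyadenylation element, at 475 ± 21.8. The somatic forms were lower: Eif4e was at 111 ± 1.9 and Pabpc1 at 15.7 ± 1.8, while the oocyte poly(A)-binding genes Pabpn1l and Pabpc1l stood at 186 ± 6.3 and 113 ± 1.8. These last 4 were picked after their values were seen. Genes that later remove the messages were present too, around a median of 14.4 ± 0.7 over 16. Btg4, the adaptor that recruits the CCR4-NOT deadenylase, stood at 777, 757, 767 and 722, the decapping gene Dcp1a at 296 ± 8.8, and the deadenylase genes Cnot7 and Cnot6l at 254 ± 11.5 and 146 ± 6. Zcchc11, a terminal uridylyl transferase, was at 0.0584 ± 0.052.

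Small RNA pathway genes were intermediate. Their median was 6.59 ± 0.68 FPKM over 19 genes, against 0.659 over all ranked genes, and 68.4% reached 1 FPKM, against 46.8% of all. None exceeded 100, a level that 3.54% of all ranked genes reach. Tdrd1, a tudor protein of the piRNA pathway, stood at 88.6, 81.6, 82.3 and 87.9, and Dicer1, which cuts double-stranded RNA, at 77.7 ± 1.7. Mael (35.2 ± 0.85) and Drosha (24.3 ± 2.4) followed, and Piwil4 was listed at 0 in every library.

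Genes for sperm binding and egg activation had a median of 86.4 ± 7.6 FPKM over 9 genes. Izumo1r (Juno), the egg receptor for the sperm protein IZUMO1, stood at 189.7, 195, 193 and 193, and the zinc importer genes Slc39a6 and Slc39a10 at 174 ± 1.8 and 154 ± 6.6. Camk2g, the calcium-responsive kinase of egg activation, was at 112 ± 2.8. Ppp3ca, a calcineurin gene, was lowest at 4.87 ± 0.62.

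The energy genes were split. Oocytes burn pyruvate and carry out little glycolysis, a known trait of the cell. Of 18 glycolysis genes, Ldhb, the lactate dehydrogenase form that favours pyruvate, stood at 1213, 1228, 1349.7 and 1175 FPKM and Pkm, pyruvate kinase, at 180.2, 188, 184 and 189. Tpi1 and Aldoa were at 35.6 ± 1.4 and 35.4 ± 1.2, and the median of the list was 2.72 ± 0.31. Gapdh was at 2.09, 2.42, 2.25 and 2.4, and Hk1 (hexokinase 1) at 0.323, 0.285, 0.213 and 0.161, both picked after their values were seen. Gapdh and several others have near-identical copies elsewhere in the genome, which can draw their reads. Eno1, again picked after seeing the values, was at 0.574 ± 0.67 and its copy Eno1b at 24.4 ± 1.4. How reads were divided between such copies was not tested. The 22 genes of pyruvate use and the citric acid cycle all reached 1 FPKM, with a median of 20.9 ± 1.1. Cs (citrate synthase) stood at 129.8 ± 3.9, Sdhd at 118 ± 7.7, Dlst at 81.6 ± 1.7 and Pdhx at 80.7 ± 1.8, and Idh3g was lowest at 1.49 ± 0.53.

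Housekeeping gene sets had medians above the 0.659 FPKM of all ranked genes, and no somatic tissue was measured here to compare them with. The 80 cytosolic ribosomal protein genes held 0.89% ± 0.031 of summed FPKM, with a median of 18.6 ± 0.51. Rpl41 was far above the others at 1250.2, 1301, 1367 and 1265 FPKM, followed by Rplp1 at 258 ± 10.6. Rpl3l, a muscle paralog, was listed at 0. The 85 oxidative phosphorylation genes had a median of 20.9 ± 0.42 and were led by Uqcrq (287 ± 6.8), Cox8a (138 ± 8.8) and Cox6a1 (127 ± 19.4). Tissue paralogs Cox7a1, Cox7b2 and Cox8b were at 0 in all 4. Of 67 replication-dependent histone genes, 50 reached 1 FPKM (74.6%, against 46.8% of all ranked genes). The level of 10 FPKM was reached by 12 of them, against 5648 of all 22969 ranked genes. Hist1h2bc was highest at 178, 179, 143 and 186. Such histone messages lack poly(A) tails, and ribosomal protein genes have many processed copies, so both lists depend on library preparation and mapping.

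Most markers of cells other than the oocyte were low beside those of the oocyte itself. All 13 oocyte markers used to check the label stood above 10 FPKM and 12 above 100, with Figla lowest at 24.5 ± 2.5. Of 20 granulosa and cumulus markers, 13 had a mean under 1 FPKM, against 53.2% of all ranked genes, and Lhcgr, Ptx3 and Tnfaip6 were listed at 0 in all 4 libraries. Foxl2, which defines granulosa cells and was picked after its values were seen, was at 0, 0, 0.207 and 0.0685. Nr5a2 and Cyp19a1 did not follow the other granulosa markers: Nr5a2, a nuclear receptor, stood at 27.3, 27.4, 25.6 and 25.7, and Cyp19a1, aromatase, at 12.7, 10.9, 10.5 and 12.8. Inha, an inhibin subunit, was at 2.52, 1.29, 2.4 and 2.04. The summed FPKM of the 20 markers was 46.6 to 51.5 in WT. Among 12 theca, stroma and luteal markers Dcn was highest at 1.49 ± 0.4. Of the blood, immune and endothelial markers Pecam1 alone exceeded 2 FPKM in mean, at 20.8, 21.9, 19.3 and 20.6, while Ptprc and Adgre1 were listed at 0 and Kdr, another endothelial marker, was at 1 ± 0.12.

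Genes of later or male programs were mostly low. Of 20 genes of embryonic genome activation 5 reached 1 FPKM, led by Sox2 at 8.23 ± 0.8, Zscan4d at 2.44 ± 0.45 and Gata6 at 2.41 ± 0.43, and 7 were at 0, among them Nanog and Zfp352. Of 11 spermatid genes 6 were at 0, including the transition protein genes Tnp1 and Tnp2 and the protamine gene Prm1. Prm2, the neighbouring protamine gene, was at 14.5, 20.9, 10.9 and 14.9. None of 8 Y-linked genes reached 1 FPKM.

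The libraries agreed closely at high levels and poorly at low ones. The median coefficient of variation over the 4 libraries was 2.44% for genes of at least 1000 FPKM, 3.32% between 100 and 1000, 5.74% between 10 and 100, 14% between 1 and 10 and 74.7% below 1. Among 772 genes between 100 and 1000 a single gene exceeded 20%. That gene was Rn45s, the ribosomal RNA precursor, at 121, 349.6, 107 and 247 FPKM, high in WT2 and WT4 and low in WT1 and WT3. At the other end AU015836 stood at 545, 545, 546 and 543, a variation of 0.242%. Mat1a, Arhgef12, Atxn7l3b and Alg9 were the other steadiest genes for their level, with variations between 0.504% and 0.839%.

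Some of the most variable genes are placed by the deposited table at the locus of another gene. RefSeq puts Amd2 and Eif3j2 elsewhere in the genome than the table does, so these pairs rest on the table's placement. Amd1, S-adenosylmethionine decarboxylase, read 0.0868, 41.3, 14.9 and 47.4 FPKM, and Amd2, at the same locus in the table, read 68, 26.1, 53.5 and 18.4. Where Amd1 was low Amd2 was high. Their sum was 68.1, 67.3, 68.5 and 65.8, a variation of 1.78% against 85.8% and 56% for the genes alone. Eif3j2 read 24.4, 4.64, 25.9 and 3.96 and Eif3j1 0.4, 19.5, 0.684 and 18.7, and their sum varied by 6.67%. The sums were added after the values were seen. The remaining variable genes were Lars2 (24 ± 11.1), Cuta (15 ± 5.8), Hnrnpa1 (12.8 ± 6.9, overlapping Gm5643), Dynlt1c (31.2 ± 9.3, overlapping Dynlt1f), Atp5e (50 ± 12.2) and Mrpl33 (35 ± 9.4). Lars2 was higher in WT2 and WT4, the libraries in which Rn45s was higher.

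**Figure D4:**
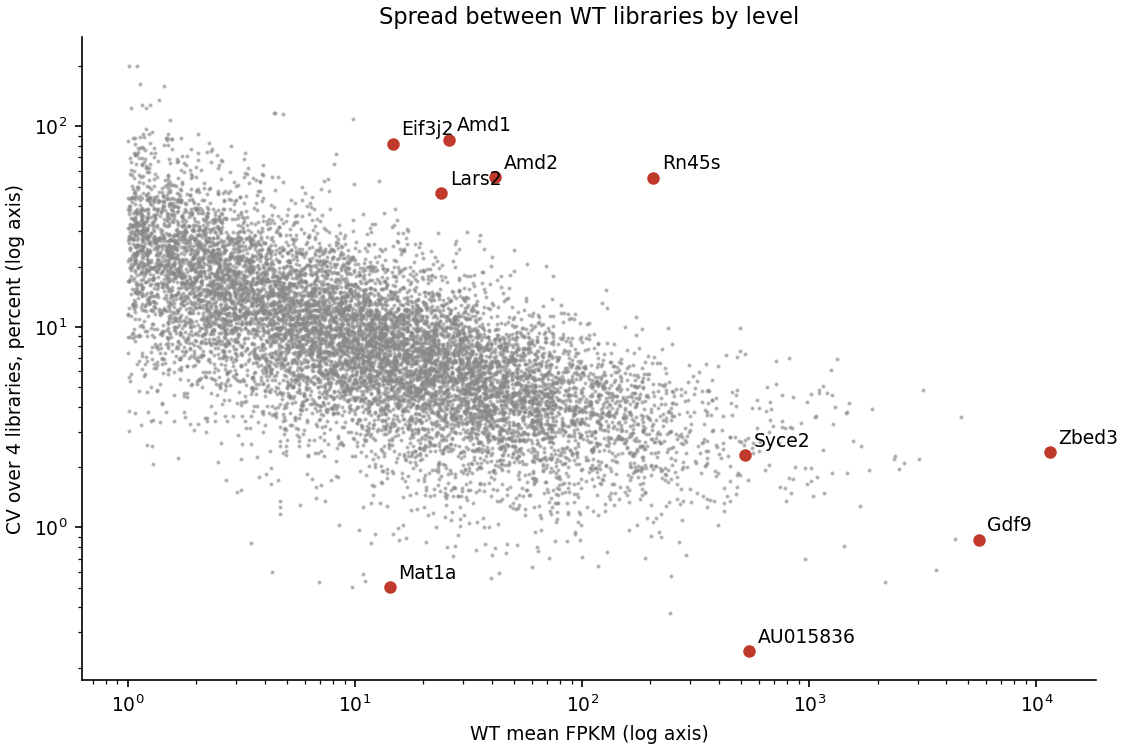
Coefficient of variation over the 4 WT libraries against WT mean (both axes log) for genes of at least 1 FPKM, with named genes in red. Amd1, Amd2, Eif3j2, Lars2 and Rn45s lie above the cloud and AU015836 and Mat1a below it.

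High-level genes sat together in the genome more often than others. Of the 300 most abundant genes, 22% had another of the 300 within 100 kb, compared with 7.33% to 12% in 4 other windows of 300 ranks, a description with no test. Clusters of at least 3 such genes numbered 8. On chromosome 9 Omt2a, Omt2b, Dppa5a, Ooep and Eef1a1 lay together at 233 to 844 FPKM, and Fbxw19, Fbxw15, Fbxw24 and Fbxw18 at 283 to 591. Chromosome 5 held Oas1e, Oas1c, Oas1h and Oas1d at 418 to 1165, chromosome 12 held Tcl1b2, Tcl1b1 and Tcl1 at 307 to 1254, and chromosome 8 held Trim75, Trim60 and Trim61 at 231 to 976. Most of these are tandem paralogs, among which fragments may be divided. Protein-coding genes of the X chromosome reached 1 FPKM in 37.9% of 847 cases against 50.9% of 19502 autosomal genes. The median level of those that did was 8.72 FPKM on the X and 11.6 on autosomes, a ratio of 0.741 ± 0.029 over the 4 libraries, and none of the 19 autosomes had a lower median than the X. AU022751 and Bmp15 were the most abundant X-linked genes, and AU015836, Rbbp7 (357 ± 14.9) and Ddx3x (311 ± 14.4) came next.

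The promoters of the most abundant genes were described from their sequence. The 300 bases around the start (250 before, 50 after) were found in RefSeq for 15845 ranked genes, 68 of the 100 most abundant among them, taking starts within 1000 bases of that in the table. TATAA starting 40 to 20 bases before the start was present in 4 of 26 promoters above 1000 FPKM (15.4%), in 3.86% between 100 and 1000, 1.52% between 10 and 100, 5.13% above 0 and under 1, 8.14% of genes at 0, and 4.36% of all. The hexamer CAGGTG, on either strand and anywhere in the 300 bases, was in 42.3% of promoters above 1000 FPKM and 19.3% of all. CACGTG was in none of the 26, in 13.2% of the 68 promoters of the 100 most abundant genes and in 8.34% of all. The median ratio of observed to expected CpG was 0.419 above 1000 FPKM, 0.817 between 100 and 1000, 0.819 between 10 and 100 and 0.183 for genes at 0, so the highest class lay apart from the classes just under it. Several promoters in these sets belong to paralogs with related sequence, and no test was made. With starts within 10 bases of the table's only, a choice made after the data were seen, 23 promoters remained above 1000 FPKM, 4 with TATAA and 11 with CAGGTG, and their median CpG ratio was 0.376.

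The 5 TATAA promoters highest in WT level are Zbed3, shown above, C86187, Obox5, Oog3 and Zp3, and the 110 bases before the start of the others are shown. The search window limits where TATAA can lie in them.
C86187: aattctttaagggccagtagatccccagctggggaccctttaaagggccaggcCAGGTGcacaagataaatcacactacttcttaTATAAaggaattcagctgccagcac
Obox5: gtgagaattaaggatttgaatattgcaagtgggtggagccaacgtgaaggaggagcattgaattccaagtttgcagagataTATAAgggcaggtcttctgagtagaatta
Oog3: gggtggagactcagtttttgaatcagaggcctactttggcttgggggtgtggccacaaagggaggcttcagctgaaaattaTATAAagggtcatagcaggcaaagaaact
Zp3: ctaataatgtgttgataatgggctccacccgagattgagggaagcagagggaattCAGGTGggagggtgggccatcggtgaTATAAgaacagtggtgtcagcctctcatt
These lie at chr7:46975912-46976021 (minus strand), chr7:15750260-15750369 (plus), chr4:144162652-144162761 (minus) and chr5:135979995-135980104 (plus). TATAA begins 25 bases before the start in C86187 and 29 before it in each of the other 3, as in Zbed3. C86187 stood at 1152 ± 58.5 FPKM.

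The position of the CAGGTG hexamer was also uneven. It began 90 to 40 bases before the start in 13 of the 68 most abundant promoters (19.1%) against 3.8% of all 15845, whereas in a window 190 to 140 bases before it the shares were 2.94% and 3.86%. The share was 7.14% at ranks 101 to 200 and 2.63% at ranks 201 to 300. The near window was chosen after the positions were seen, so these shares describe the promoters and test nothing. C86187 and Zp3 above are among the 13, and 6 more are printed because they belong to the oocyte groups described here.
Zar1: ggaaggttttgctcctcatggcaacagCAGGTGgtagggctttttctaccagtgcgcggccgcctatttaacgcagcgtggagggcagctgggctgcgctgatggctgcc
Rfpl4: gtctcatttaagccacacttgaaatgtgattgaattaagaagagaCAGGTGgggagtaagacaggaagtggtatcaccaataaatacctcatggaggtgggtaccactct
Btg4: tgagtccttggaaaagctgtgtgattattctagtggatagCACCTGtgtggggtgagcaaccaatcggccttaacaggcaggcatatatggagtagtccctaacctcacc
Padi6: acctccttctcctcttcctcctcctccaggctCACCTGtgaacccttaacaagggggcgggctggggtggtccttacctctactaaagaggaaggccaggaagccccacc
Khdc3: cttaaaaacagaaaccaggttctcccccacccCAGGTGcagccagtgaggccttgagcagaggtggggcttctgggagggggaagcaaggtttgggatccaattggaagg
Oosp1: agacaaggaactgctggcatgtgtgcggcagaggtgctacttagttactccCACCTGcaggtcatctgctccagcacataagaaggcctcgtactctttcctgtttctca
Their places are chr5:72581085-72581194 (minus), chr7:5116912-5117021 (minus), chr9:51115891-51116000 (plus), chr4:140742644-140742753 (minus), chr9:73102288-73102397 (plus) and chr19:11691052-11691161 (minus). The hexamer begins 83 bases before the start in Zar1, 65 in Rfpl4, 70 in Btg4, 78 in Padi6 and Khdc3, and 59 in Oosp1, compared with 57 in C86187 and 55 in Zp3.

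WT oocytes concentrated their transcriptome in fewer genes than both mutants. Against 10732 ± 29.9 genes at 1 FPKM or more in WT, GTMut had 11343 ± 46.2 and D272Mut 11332 ± 47.9. Against 5654 ± 9.5 genes at 10 FPKM or more in WT, GTMut had 6221 ± 9.5 and D272Mut 6222 ± 12.9. The 100 most abundant genes of each library held 28.4% ± 0.23 of summed FPKM in WT libraries, compared with 24.2% ± 0.21 (GTMut) and 23.9% ± 0.15 (D272Mut). In all 3 measures no mutant library overlapped the WT libraries, and two-sided exact permutation of 4 libraries against 4 gave the least p that 70 arrangements allow, 0.0286, for either mutant (adjusted p = 0.0312 over 12 tests). With short RNA genes kept, the top 100 share differed by -8.44 points (GTMut) and -11 points (D272Mut) and did not pass the test, with exact permutation p = 0.1714 and 0.3143. Genes at 100 FPKM or more numbered 821 ± 3.3 in WT and 804 ± 5.5 in GTMut (same exact p). D272Mut had 816 ± 20.7, which overlapped WT (exact permutation p = 0.7714). With library levels rescaled by median ratios, the GTMut difference in that count turned to 3 more genes, with exact p = 0.4571. Both comparisons share the WT libraries. The summed FPKM of the 20 granulosa markers was 148 to 162 in GTMut and 146 to 148 in D272Mut, above the 46.6 to 51.5 of WT, with 1 marker at 0 in all 4 libraries of each mutant, and its part in these differences was not tested. Most of the sum in the mutants came from Nr5a2, at 26.5 ± 0.98 in WT, 134 ± 5.5 in GTMut and 118 ± 1.7 in D272Mut, while Cyp19a1 went from 11.7 ± 1.2 to 4.9 ± 0.49 and 6.53 ± 0.77. The limma fit held 10 of these markers and called 3 up and 4 down for GTMut, against 4 up and 3 down for D272Mut. Of all 12980 genes tested, 38.3% were called up and 39.2% down for GTMut, and 36.3% and 39.5% for D272Mut. The marker counts were near these shares.

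**Figure D5:**
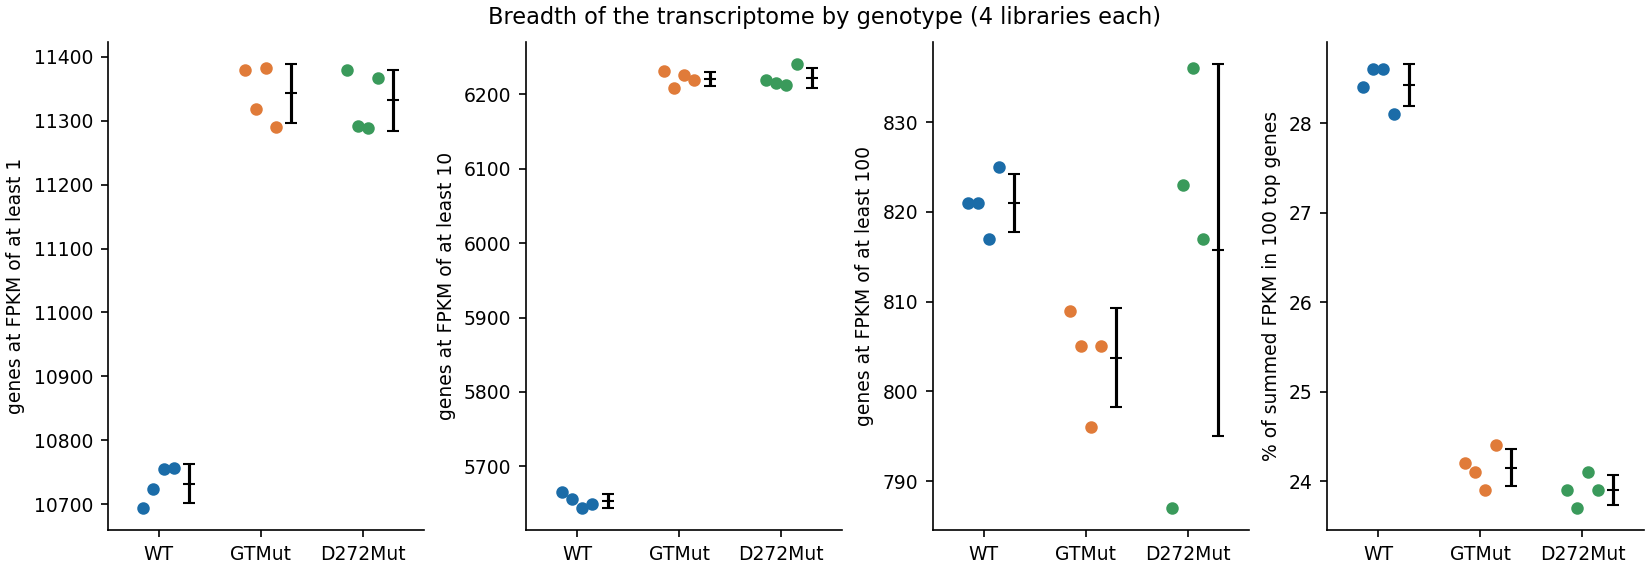
Breadth measures of each library by genotype (points), with the mean and SD of 4 libraries beside them; axes do not start at 0. WT lies below both mutants in genes at 1 and at 10 FPKM and above them in the share of the 100 top genes.

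The top of the WT ranking was largely kept in the mutants. Of the 100 most abundant WT genes, 71 were in the top 100 of GTMut and 77 in that of D272Mut, and 23 of the top 30 stayed in the top 30 of each. In a limma fit over all 12 libraries and 12980 genes, 38.3% of genes were higher and 39.2% lower in GTMut at an adjusted p under 0.05, and 36.3% higher and 39.5% lower in D272Mut. Quantile normalization moved the split of calls from 49.4% to 39.2% higher in GTMut and from 47.9% to 37.4% in D272Mut, with the median of all genes then at -0.23 and -0.25. Of the 100 most abundant WT genes 14 rose and 74 fell in GTMut, and 13 rose and 76 fell in D272Mut, with a median log2 difference of -0.43 in each, against -0.02 and -0.05 over all genes tested. These genes were chosen by their WT level, so falls are favoured by the choice, and the counts are a description. Among genes of 100 to 1000 FPKM chosen by the mean of all 12 libraries, 254 were higher and 418 lower in GTMut out of 756, and 256 higher and 420 lower in D272Mut. In that class 95 genes had a log2 difference of at least 1 and 64 of at most -1 in GTMut, and 98 and 34 in D272Mut. The mean of all 12 libraries includes both mutants, so it favours genes that rise in them, and these counts too are a description. Between 10 and 100 FPKM, 2310 were higher and 2388 lower in GTMut out of 5511, and 2191 and 2468 in D272Mut. Large changes there also went more often upward, with 1261 up and 559 down in GTMut and 1211 and 320 in D272Mut.

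Named members of the WT top 100 moved far. C86187 fell from 1152 ± 58.5 FPKM in WT to 213, 185, 185 and 192 in the GTMut libraries, a log2 difference of -2.57 ± 0.07 (SE, limma adjusted p = 1.75e-13). Rfpl4 fell from 1698 ± 43.5 to 322 ± 13 in GTMut and 592 ± 62.3 in D272Mut. Oog3 went from 1016 ± 46.8 to 291 ± 17.3 and 297 ± 23.8, Obox2 from 1503 ± 63 to 464 ± 15.5 in GTMut, and E330034G19Rik from 819 ± 25.9 to 284 ± 4.4 in GTMut. The largest falls in D272Mut also included C87977, from 1108 ± 51.6 to 279 ± 6.4 (log2 difference -1.99 ± 0.05, limma adjusted p = 1.12e-13), C86187, to 347 ± 32.1, and Gm13023, from 1199 ± 56 to 484 ± 13.5. In the other direction Khdc3, of the subcortical maternal complex, rose from 619, 627, 667 and 664 in WT to 1643, 1699.7, 1702 and 1801 in GTMut and to 1745, 1593, 1672 and 1792 in D272Mut, moving from rank 72 to ranks 15 and 14. Tmsb10, a thymosin that binds actin, D10Wsu102e, the RNA-binding protein gene Pcbp1 and Ccno made up the other 4 largest rises in both mutants. They rose by log2 differences of 0.87, 0.77, 0.65 and 0.57 in GTMut and 0.69, 0.54, 0.49 and 0.49 in D272Mut, each past the limma threshold.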

How the data were processed

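RNA from 80 oocytes per library was sequenced in 12 libraries, 4 for each of 3 genotypes. Per the submitters' processing notes and the design text, the authors aligned reads to mm10 with TopHat2 2.0.13 and computed the deposited FPKM values with Cufflinks 2.2.1. The authors also deposited p-values, q-values and log2 ratios from cuffdiff, which enter no result. Columns were read by position because the header lacks a name for its first column, and 1 line without content was not analysed here. FPKM of short, overlapping or duplicated genes is less certain, and no source used here states strand. No per-library total is in the table, so precision is given as the SD over 4 libraries.

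Levels, ranks and spreads were computed over the WT libraries, with 1285 short RNA genes left out. Genes named in the text are the 30 most abundant, the members of lists of up to 8 genes, otherwise the 4 highest and the lowest and those at 0, the 10 genes with the largest and 5 with the smallest spread for their level, the 5 largest rises and falls per mutant among the 100 most abundant, the 5 most abundant X-linked genes and gene models, and Marf1. Exceptions are marked. The rule, the lists and the samples were chosen with earlier results of these data known. Spread was the SD of log2 values over the median SD of genes of like level. Mutants were compared with limma 3.58.1 in R 4.3.3 on log2(FPKM + 1), which understates changes of low genes, for genes with a maximum of at least 1 FPKM, over all 12 libraries, with Benjamini-Hochberg adjustment. The fit was tested on simulated data. Breadth was tested by exact permutation. Promoters and gene coordinates were read from RefSeq GRCm38.p6, and biotypes from GENCODE M21. Figures were drawn with matplotlib 3.10.9.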

Additional observations from a re-analysis of the deposited data

Results flagged for a closer look

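Listed here are values of 1 library whose gap to the nearest of the other 3, as a share of the range, exceeded Dixon's 95% critical value for 4 values, which chance does in about 1 group of 20. Of 192 groups examined 13 did. Zar1 was at 1893 FPKM in WT2 and 1821 to 1822 in the others. C86187 was at 1239 in WT1 and 1118 to 1132 elsewhere, Zp2 at 161 in WT3 and 146 to 148 elsewhere, Rac1 at 121 in WT1 and 112 to 114 elsewhere, and Hist3h2ba at 52.7 in WT1 and 37.1 to 39.2 elsewhere. On the low side were Nlrp9b at 332 in WT4 (340.5 to 342 elsewhere), Oosp3 at 152 in WT4 (172 to 174), Gpr3 at 151 in WT2 (158 to 159) and Kitl at 1.95 in WT4 (2.78 to 2.94). Among list medians, oocyte transcription factors were at 30.3 in WT2 (33.5 to 33.8 elsewhere), small RNA pathway genes at 7.6 in WT3 (6.1 to 6.34) and granulosa markers at 0.294 in WT1 (0.194 to 0.211). The share of the 1000 most abundant genes was 57.5% in D272Mut replicate 3 and 57.1% in the other 3 libraries. Outside the genes ranked here, short RNA genes held at least 77.8% of the summed FPKM of a WT library, spread over 18 genes above 0 in mean.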

How the results depend on the processing

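Leaving out each WT library in turn gave 10724 to 10745 genes at 1 FPKM and a top 100 share of 28.3% to 28.5%. Leaving out histone and ribosomal protein genes lowered the gene count to 10593 and left those 2 lists without a value. Keeping short RNA genes raised the top 100 share to 89.8%, since these genes then hold most of the sum. With them kept, the breadth differences lost their call. For the gene counts, apart from genes at 100 FPKM in D272Mut (-6.5, exact permutation p = 0.7429), the exact permutation p stayed at 0.0286. Their p adjusted over the 12 tests was 0.0686, since the shares, adjusted together with them, had exact p of 0.0857 to 0.3143. The differences were, for genes at 1 FPKM, 609.5 (GTMut) and 598 (D272Mut) higher, at 10 FPKM 565 and 566 higher, at 100 FPKM -18.8 in GTMut, and shares of the top 10, 100 and 1000 genes different by -9.82, -8.44 and -5.24 points in GTMut and -12.8, -11 and -6.58 in D272Mut. Median-ratio rescaling turned the difference in genes at 100 FPKM to 3 in GTMut and 20 in D272Mut. A left-out library leaves 4 against 3, whose smallest exact p is 0.0571, so its tests cannot pass 0.05. Over these, the differences ranged from 597 to 628 genes (1 FPKM, GTMut), 584 to 614 (1 FPKM, D272Mut), -4.37 to -4.17 points (top 100, GTMut) and -4.63 to -4.46 (top 100, D272Mut). The difference in genes at 100 FPKM between D272Mut and WT, which had not passed the test, was 4.33 without D272Mut replicate 1.

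In the limma fit, GTMut gave 4973 higher and 5086 lower genes and D272Mut 4710 and 5121. A mean filter of 5 FPKM gave 3298 higher in GTMut because fewer genes were tested. Quantile normalization moved the split to 4105 higher and 6369 lower in GTMut and to 3865 and 6471 in D272Mut, and the median of all genes to -0.23 and -0.25. With replicate number as a block, GTMut had 4943 higher and 5064 lower and D272Mut 4682 and 5089. Deviations of log levels from the genotype mean correlated at -0.357 to 0.094 between same-numbered libraries of different genotypes. These values gave no sign that the numbers pair libraries. Between libraries of different number and genotype the correlations ran from -0.176 (GTMut2 with WT3) to 0.363 (GTMut2 with WT1). Whether libraries of different genotypes share a batch was not tested. Without 1 library the counts were 4835 to 4879 higher and 4927 to 4960 lower in GTMut, and 4590 to 4656 and 4914 to 5029 in D272Mut.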

Other observations

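The highest short RNA gene was not the same in every WT library. It was Mir682 in WT1 (905604 FPKM), Mir684-1 in WT2 and WT4 (2146450 and 1063540) and Mir7035 in WT3 (1468800). The share of summed FPKM held by short RNA genes ran from 77.8% to 91.4%. FPKM divides by transcript length, which is very small for these genes.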
